A study of Mus musculus with 9 samples.

Results

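Gm42346, Zfp990, Gm13212, Zfp988 and Zfp982 are 5 protein-coding genes of a zinc finger gene cluster near the distal end of mouse chromosome 4, out of 21631 protein-coding genes counted. They were chosen by their Smc1 contact counts, which stood far higher in NOD than in BL6 thymocytes, so that contrast is given here without a test. The study mapped chromatin contacts in thymocytes sorted for CD4 and CD8 together, a stage at which T cell precursors test their receptors in the thymus. HiChIP joins chromosome conformation capture to immunoprecipitation, so that each read pair joins DNA segments held together near the precipitated protein. Smc1, a subunit of the cohesin ring, was precipitated from NOD/ShiLtJ (NOD) mice in 2 libraries, from a cross of NOD/ShiLtJ with C57BL/6 (F1) in 1 library and from C57BL/6J (BL6) mice in 2 libraries. H3K27ac, the acetylated histone found at active enhancers and promoters, was precipitated from NOD and from BL6 mice in 2 libraries each. The labels give neither age nor treatment, and the substrain of the C57BL/6 parent of the F1 is not stated. The Smc1 libraries of a strain are technical replicates of 1 biological replicate, whereas the H3K27ac libraries are biological replicates, and all 4 of them bear Smc1 in their titles although their antibody field, which was followed here, names H3K27ac.

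Zinc finger proteins of the KRAB type bind DNA through arrays of fingers and recruit repressors of chromatin. Their genes lie in tandem clusters that grew by duplication, and many of them silence transposable elements. In mouse embryonic stem cells, genes of this chromosome 4 cluster have been linked to the silencing of endogenous retroviruses, and Zfp982 to the maintenance of the stem cell state. Zfp988, Zfp982 and Zfp990 are zinc finger genes by name, while Gm42346 and Gm13212 carry clone-type names whose products the gene table does not describe. The 5 genes form a left group and a right group. On GRCm38, Gm42346 (chr4:145412232-145451249), Zfp990 (chr4:145510759-145538251) and Gm13212 (chr4:145585172-145625343) lie on the left. Zfp988 (chr4:147305604-147334067) and Zfp982 (chr4:147443114-147516064) lie 1680 kb farther right. The 3 Mb around them hold 14 other zinc finger genes and 9 other protein-coding genes.

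The start regions of the members are shown because they display how alike these gene copies are. Promoters of 3 of the 5 members were found in RefSeq (GRCm38.p6), each 300 bases long and on the plus strand. Capitals mark the 3 stretches of at least 12 bases that the 3 promoters share. For Zfp982, which has 3 listed starts, the start that shares the most bases is shown.
Gm13212, chr4:145584950-145585249: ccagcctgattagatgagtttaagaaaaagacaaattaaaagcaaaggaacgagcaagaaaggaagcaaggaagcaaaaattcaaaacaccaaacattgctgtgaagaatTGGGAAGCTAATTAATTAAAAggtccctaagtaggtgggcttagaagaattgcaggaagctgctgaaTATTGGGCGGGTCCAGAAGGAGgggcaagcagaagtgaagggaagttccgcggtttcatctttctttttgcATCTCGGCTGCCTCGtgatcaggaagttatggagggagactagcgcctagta
Zfp988, chr4:147305354-147305653: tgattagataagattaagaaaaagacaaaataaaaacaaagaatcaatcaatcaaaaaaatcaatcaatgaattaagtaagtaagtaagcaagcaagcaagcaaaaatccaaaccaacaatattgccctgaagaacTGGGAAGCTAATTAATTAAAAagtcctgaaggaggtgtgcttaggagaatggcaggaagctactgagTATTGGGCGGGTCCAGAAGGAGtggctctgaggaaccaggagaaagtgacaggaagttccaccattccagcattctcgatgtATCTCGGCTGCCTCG
Zfp982, chr4:147492167-147492466: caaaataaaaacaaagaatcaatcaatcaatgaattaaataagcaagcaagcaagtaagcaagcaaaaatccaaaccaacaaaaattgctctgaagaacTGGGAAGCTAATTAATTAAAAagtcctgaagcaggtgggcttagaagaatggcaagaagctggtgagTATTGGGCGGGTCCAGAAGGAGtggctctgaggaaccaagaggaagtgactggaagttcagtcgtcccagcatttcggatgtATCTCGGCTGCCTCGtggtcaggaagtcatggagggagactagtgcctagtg
Aligned end to end, Gm13212 and Zfp982 were identical at 75.6% of positions, Zfp988 and Zfp982 at 71.2%, and Gm13212 and Zfp988 at 64.9%. Each stretch (TATTGGGCGGGTCCAGAAGGAG, TGGGAAGCTAATTAATTAAAA and ATCTCGGCTGCCTCG, searched on both strands, with no overlap between them) occurred in 7 of 32851 promoters, or 0.0213%, and all 7 belonged to zinc finger genes of this cluster. Of the 14 cluster zinc finger genes with a promoter sequence, 11 held at least 1 of the stretches. The 3 members shown are among the 7 and the 11 by the way the stretches were chosen. A match is a description of letters, not of binding, and how surely read pairs were assigned among these related genes was not tested.

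Contacts were counted as read pairs of listed interactions with an anchor in the gene or within 5 kb of it. They are given per 1000000 read pairs listed in the same table (RPM), and the tables listed 1798655 and 1650890 read pairs in Smc1 NOD, 879117 and 837034 for F1 on the NOD and the BL6 genome, and 2089781 and 2971366 in Smc1 BL6. The H3K27ac tables held 404343 and 538308 in NOD and 482321 and 1283674 in BL6. A table lists an interaction only if it has 2 read pairs or more and a q-value of at most 0.05, so an unlisted contact is under that limit and not measured as 0. Reads of NOD libraries were placed on the NOD genome and then shifted to BL6 coordinates, and the F1 library was deposited once in each form. Strain and mapping genome therefore cannot be told apart between the parents, while the F1 table on the BL6 genome was made like the BL6 tables. Contacts of the 10 double-positive thymocyte marker genes were listed for 8 to 10 of them in every table, with sums of 1140 and 287 RPM in Smc1 NOD libraries 1 and 2 and of 543 to 3077 in the other tables. All B cell marker genes but 1 in F1, and all myeloid marker genes but 1 in 1 H3K27ac BL6 table, also had listed contacts, with sums of 833 to 1833 and of 166 to 347, and listed contacts are not expression.

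Together the 5 genes had 601 and 1148 RPM in Smc1 NOD, 1773 in F1 on the NOD genome, 1265 in F1 on the BL6 genome, and 71.8 and 62.6 in BL6. Both NOD libraries and both forms of the F1 library lay above both BL6 libraries by a wide margin. The means were 874 ± 387 in NOD and 67.2 ± 6.49 in BL6 (SD, n = 2 technical libraries each), a ratio of 13.0 that ran between 8.37 and 18.3 over the pairs of libraries. The read pairs came from 232 and 273 interactions in NOD, 328 in F1 on the NOD genome, 222 in F1 on the BL6 genome, and 50 and 55 in BL6. In NOD, 39.2% and 17.6% of these interactions rested on the minimum of 2 read pairs, against 56.0% and 52.7% in BL6. All 5 members had more RPM in both NOD than in both BL6 libraries, an order that 15.9% of 18130 genes with enough read pairs showed. The members were chosen for this order.

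**Figure D1:**
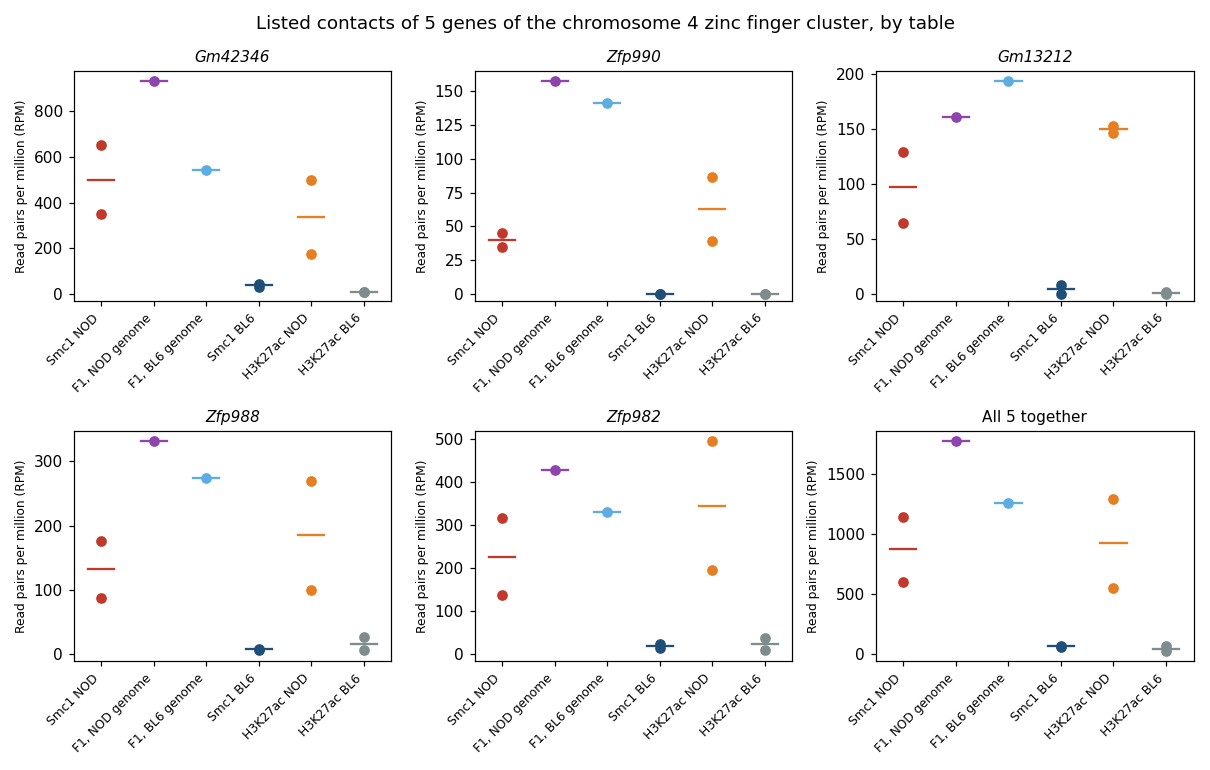
Read pairs per 1000000 listed read pairs (RPM, linear y axis) for each of the 5 genes and for all 5 together, by group. Points are tables and lines are group means. All 5 together had 601 and 1148 in Smc1 NOD and 71.8 and 62.6 in Smc1 BL6, and F1 lay above both BL6 libraries for each gene.

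In Smc1, Gm42346 carried the most contacts of the 5. It had 350.3 and 651 RPM in Smc1 NOD, 930.5 in F1 on the NOD genome, 541 in F1 on the BL6 genome, and 46.4 and 32.98 in Smc1 BL6. The ratio of the NOD to the BL6 mean was 12.6, with a range over library pairs of 7.55 to 19.7, and the groups did not overlap. Its right neighbour Zfp990 was the sparsest member, with 35.0 and 44.8 in Smc1 NOD, 157 in F1 on the NOD genome and 141 in F1 on the BL6 genome. Zfp990 had no listed interaction in either Smc1 BL6 library, so no ratio to BL6 is given. Gm13212 had 64.5 and 130 in Smc1 NOD, 162 in F1 on the NOD genome and 194 in F1 on the BL6 genome. In Smc1 BL6, Gm13212 had 8.61 in library 1 and no listed interaction in library 2. The anchors chr4:145582087-145583913 and chr4:145579571-145581647 lie before the start of Gm13212 and count through the 5 kb margin. In Smc1 NOD they held 73 and 37 of its 116 read pairs in library 1, and 91 and 86 of 214 in library 2. In F1 they held 52 and 39 of 142 on the NOD genome, and 57 and 32 of 162 on the BL6 genome.

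In the right group, Zfp988 had 88.4 and 176 RPM in Smc1 NOD, 331 in F1 on the NOD genome, 275 in F1 on the BL6 genome, and 7.66 and 8.75 in Smc1 BL6. Its ratio of NOD to BL6 means was 16.1, between 10.1 and 22.9 over library pairs. Zfp982 had 137 and 317 in Smc1 NOD, 429 in F1 on the NOD genome, 331 in F1 on the BL6 genome, and 15.8 and 23.9 in Smc1 BL6, a ratio of 11.4 (5.75 to 20.1). NOD library 2 was higher than NOD library 1 for each of the 5 genes and lower for the summed thymocyte markers, and the part of this difference between libraries was not tested. By mean in Smc1 NOD the order was Gm42346, Zfp982, Zfp988, Gm13212 and Zfp990, but the library ranges of Zfp982, Zfp988 and Gm13212 overlapped from each to the next. Zfp988 lies inside the annotated body of Zfp978, another zinc finger gene, and every interaction of Zfp988 also counts for Zfp978. All Smc1 NOD and BL6 read pairs of Zfp988 came from the anchor chr4:147334485-147338960. It lies past the end of Zfp988, within the 5 kb margin and inside Zfp978, so they are not contacts of the Zfp988 body.

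The F1 library set the mapping genome beside the strain. On the BL6 genome, all 5 together stood 18.8-fold above the BL6 mean, and 17.6- and 20.2-fold above the single BL6 libraries. All 5 members were more than 2-fold above both BL6 libraries, as were 3.72% of 17402 genes with at least 40 read pairs over F1 and BL6. Zfp990 and Gm13212 reached that minimum only with their F1 read pairs, which required a high F1 value of them, so the members' count is a description. This comparison shares its BL6 libraries with the parental one, and the F1 has no replicate. The ratio was 13.6 for Gm42346, 33.5 for Zfp988 and 16.7 for Zfp982, on the genome on which BL6 was mapped. How F1 reads of NOD origin were placed on that genome was not tested. On the NOD genome, F1 had 2.03 times the mean of the NOD libraries for all 5 together (1.54 and 2.95 times the single libraries), with 3.93 times for Zfp990 and 1.66 times for Gm13212.

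Read on both genomes, the same F1 reads gave 1.40 times as many RPM on the NOD genome as on the BL6 genome for all 5 together. Only Gm42346 passed a ratio of 1.5, which 2.02% of 11832 genes did, with 818 read pairs on the NOD genome against 453 on the BL6 genome. Zfp982 had a ratio of 1.296, Zfp988 of 1.20 and Zfp990 of 1.11, and Gm13212 was lower on the NOD genome, with a ratio of 0.835. Among the other zinc finger genes of the 3 Mb, 6 of 11 passed the ratio of 1.5. The difference at Gm42346 came with the anchor at chr4:145433483-145440459 inside the gene, which in F1 joined 329 read pairs on the NOD genome against 38 on the BL6 genome. The reads that the authors' tables give for that anchor were 11.9 times the median anchor of the table for F1 on the NOD genome and 2.39 times for F1 on the BL6 genome, against 8.01 and 8.72 times at the neighbouring anchor chr4:145426985-145433238. The part of anchor mapping in these contacts was not tested.

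H3K27ac contacts gave the same order in separate libraries, which were mapped on the same genome as the Smc1 libraries of their strain. All 5 together had 1298 and 549.9 RPM in NOD and 70.5 and 28.0 in BL6, with means of 924 ± 529 and 49.3 ± 30.0 (SD, n = 2 each). All 5 members stood higher in both NOD than in both BL6 libraries, as did 11.2% of 14140 genes tested. The members were among the genes tested through their NOD libraries, so their count is a description. For Gm42346 the values were 497 and 176 in NOD and 10.4 and 10.9 in BL6, and for Zfp982, whose mean was the higher here, 495 and 195 in NOD and 37.3 and 10.9 in BL6. Zfp988 had 269.6 and 100.3 in NOD and 26.95 and 6.23 in BL6. Gm13212 had 153 and 147 in NOD, 2.34 in BL6 library 2 and no listed interaction in BL6 library 1. Zfp990 had 86.6 and 39.0 in NOD and no listed interaction in BL6. NOD library 1 was the higher of the 2 for each member, and no value of a NOD library overlapped those of BL6.

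No member passed edgeR's test in H3K27ac on all libraries without a replicate block (a term for same-numbered libraries). edgeR's quasi-likelihood test with Benjamini-Hochberg adjustment called 0% of the 14140 genes (0 genes, smallest adjusted p = 0.438), with 115 genes at an unadjusted p under 0.05. The log2 fold change of NOD over BL6 was 4.98 ± 0.83 (SE) for Gm42346 and 6.46 ± 1.07 for Gm13212 (edgeR adjusted p = 0.757 for both). It was 3.56 ± 1.01 for Zfp988 and 3.90 ± 0.91 for Zfp982 (edgeR adjusted p = 1.00 for both), and the adjusted p of Zfp990 was also 1.00. Single libraries moved these values: without NOD library 1 they were 3.96 for Gm42346, 2.58 for Zfp988 and 2.98 for Zfp982. Without BL6 library 1 Zfp988 had 4.86 and Zfp982 4.97, and without BL6 library 2 they had 2.75 and 3.19, while Gm13212 was then left with no listed interaction in BL6. DESeq2 called 25 genes with 4 of the 5 members, all but Zfp988 (DESeq2 adjusted p = 0.311). With the replicate block edgeR called 31 genes with 4 members, all but Zfp990, but 2 pairs do not show that the numbers pair the samples. Without H3K27ac NOD library 2, edgeR called 28 genes with all 5 members, from Gm42346 (edgeR adjusted p = 4.89e-05) to Zfp988 (0.0468). Over all alternatives the adjusted p ran between 1.89e-05 and 1.00 for Gm42346 and between 0.00521 and 1.00 for Zfp988. All 5 members passed the filter on low counts through their NOD libraries, which required a high NOD value of each, so that the members' counts and median are a description. The median log2 fold change was 4.98 over the 5 members, with the fitted value of Zfp990 as the highest, and 2.46 over the 5 tested of 14 other zinc finger genes of the 3 Mb. It was -0.02 over 7 of 9 other genes there, 0.03 over 228 of 384 genes named Zfp elsewhere and 0.02 over all genes tested.

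The excess was bounded on the map. In steps of 100 kb from the start of Gm42346, 15 of 41 steps held more than 2-fold more Smc1 contact ends per 1000000 read pairs in both NOD than in both BL6 libraries. They began 100 kb before Gm42346 and ended 2400 kb after its start, and F1 on the BL6 genome was more than 2-fold above both BL6 libraries in all 15 of them. Contact ends gathered at few places: the step from 600 kb, with no member in it, held 231 and 403 such ends in NOD, 717 in F1 on the NOD genome, 709.6 in F1 on the BL6 genome, and 9.09 and 3.03 in BL6. The step from 2100 kb, which holds the end of Zfp982 and the anchor past it, held 363 and 985 in NOD, 799 in F1 on the NOD genome, 784 in F1 on the BL6 genome, and 32.1 and 39.7 in BL6. The steps from 500, 900 and 1200 kb held no listed end in any table.

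**Figure D2:**
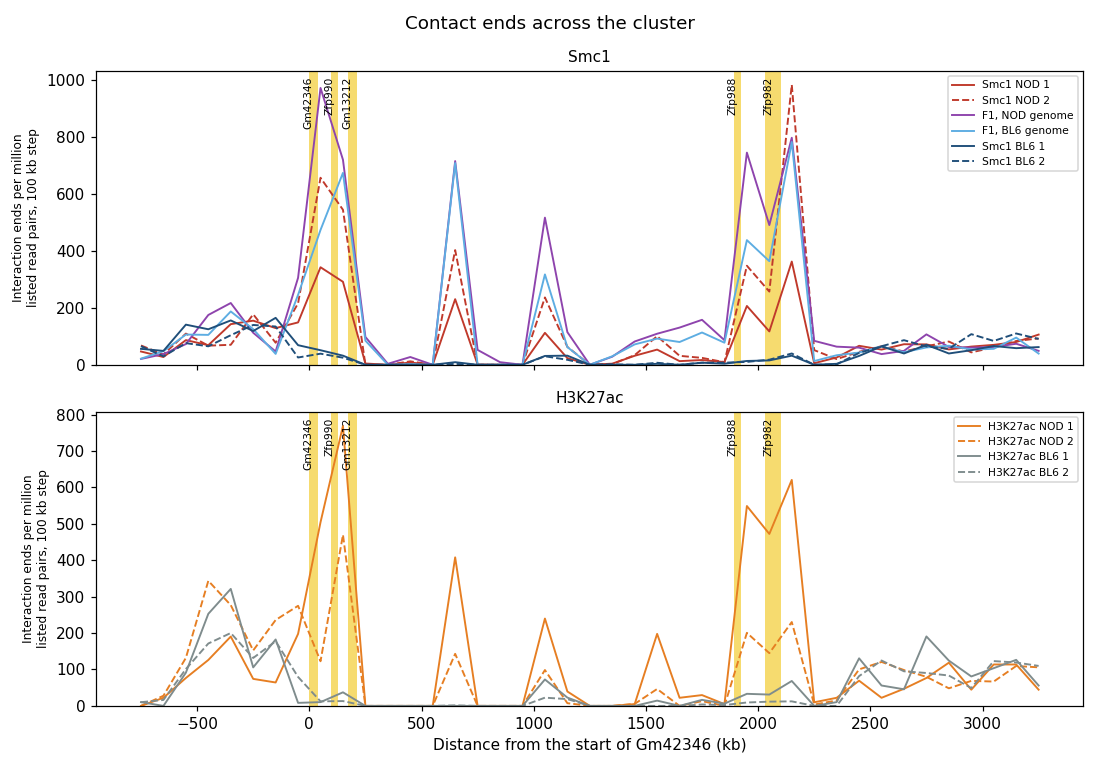
Contact ends per 1000000 listed read pairs (y axis) in 100 kb steps against distance from the start of Gm42346 in kb (x axis), for Smc1 (top) and H3K27ac (bottom); each line is a table and yellow bands are the 5 genes. NOD and F1 lines stand above BL6 at the 5 genes and at the steps from 600 and 1000 kb.

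**Figure D3:**
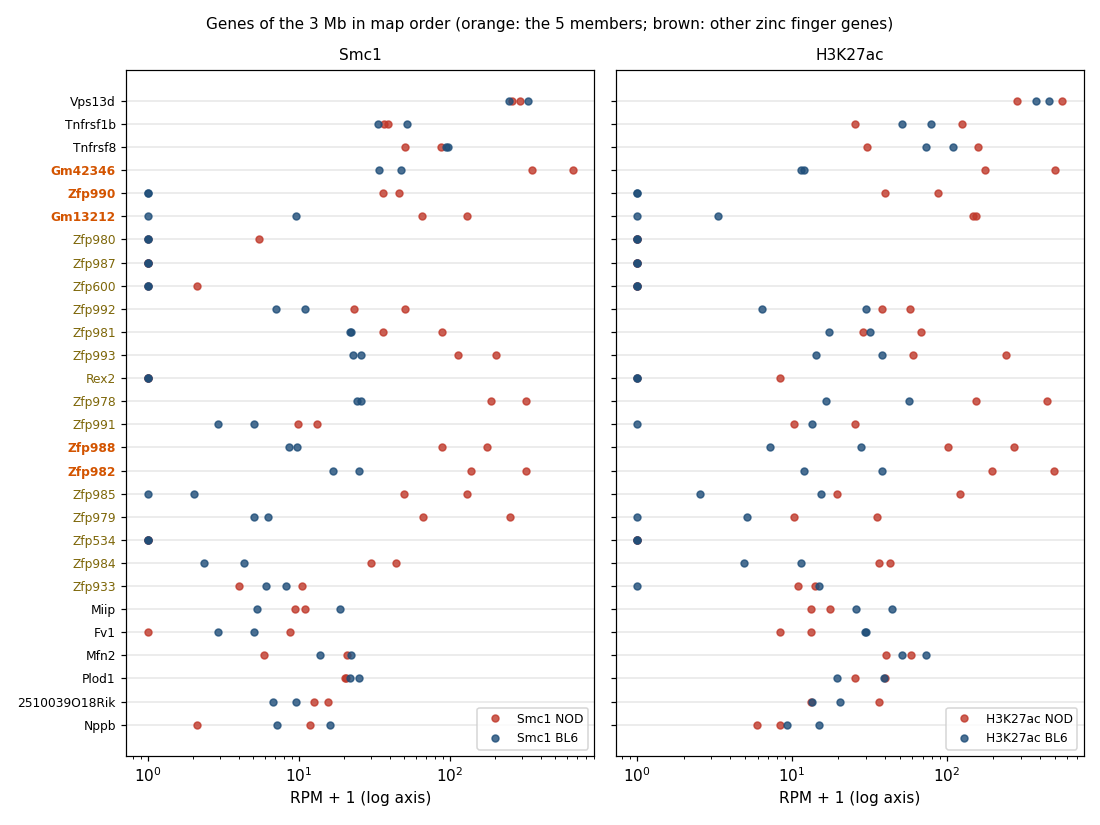
RPM plus 1 (log axis) for the 28 protein-coding genes of the 3 Mb in map order, in Smc1 (left) and H3K27ac (right); each point is a library. The 5 members lie to the right in NOD, whereas Vps13d, Tnfrsf8 and Tnfrsf1b lie at like values in NOD and BL6.

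Most neighbouring genes outside the cluster did not show the NOD excess in Smc1. Tnfrsf8, which encodes the TNF receptor family member CD30 and ends 97.1 kb before Gm42346, had 86.2 and 49.7 RPM in Smc1 NOD, 35.3 and 28.7 in F1 on the NOD and the BL6 genome, and 93.8 and 96.6 in Smc1 BL6. Vps13d, a lipid transfer protein gene, had 291 and 258 in NOD and 326 and 246 in BL6, and Tnfrsf1b, the gene of TNF receptor 2, 37.8 and 35.7 in NOD and 51.2 and 32.3 in BL6. Beyond the right end, Fv1, a gene that restricts murine leukaemia viruses, had 7.78 in NOD library 1, no listed interaction in NOD library 2, and 1.91 and 4.04 in BL6. In H3K27ac, Fv1 had 12.4 and 7.43 in NOD and 29.0 and 28.8 in BL6. These rest on 5 and 4 read pairs in NOD and 14 and 37 in BL6. The difference did not pass the test (log2 fold change -1.54 ± 1.37 SE, edgeR unadjusted p = 0.299). Plod1, a lysyl hydroxylase gene, had 19.5 and 19.4 in Smc1 NOD, 4.55 and 2.39 in F1 on the NOD and the BL6 genome, and 23.9 and 20.9 in Smc1 BL6. F1 was thus below both parents there and at Tnfrsf8. At Plod1 the F1 values rest on few read pairs. The F1 library listed fewer read pairs than any parental Smc1 library, and the part of this depth was not tested. The mitochondrial fusion gene Mfn2 had 20.02 and 4.85 in Smc1 NOD and 12.9 and 21.2 in BL6. Of 8 such genes with enough Smc1 read pairs, 1 had both NOD libraries above both BL6 libraries, namely 2510039O18Rik (11.7 and 14.5 in NOD, 8.61 and 5.72 in BL6).

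Most other zinc finger genes of the cluster with enough Smc1 read pairs showed the order of the members. An interaction that joins a member to such a gene counts for both, so their values are not independent. Of 9 with enough Smc1 read pairs, 8 stood higher in both NOD than in both BL6 libraries. The same held for 55 of 327 genes named Zfp elsewhere. The exception among the 9 was Zfp933, with 9.45 and 3.03 RPM in NOD and 7.18 and 5.05 in BL6. Some of the 9, Zfp979 and Zfp985 among them, reached the minimum of 40 read pairs only with their NOD read pairs. That required a high NOD value of them, so the count is a description. Zfp978, which holds Zfp988, had 185 and 319 RPM in NOD and 23.4 and 24.9 in BL6. Zfp979 had 65.6 and 249.6 in NOD and 5.26 and 4.04 in BL6, and Zfp985, which starts 37.2 kb after Zfp982, had 48.4 and 130 in NOD, 1.01 in BL6 library 2 and no listed interaction in BL6 library 1. Zfp993 had 112 and 199.9 in NOD and 22.0 and 24.9 in BL6. Zfp981 with 35.0 and 87.2 in NOD against 21.1 and 20.9 in BL6, and Zfp992 with 22.2 and 49.7 in NOD against 10.0 and 6.06 in BL6, showed a smaller gap between the strains. Zfp980 had too few read pairs for the count, with 4.45 in NOD library 1 and none listed in NOD library 2 or in BL6. In F1 it had 87.6 on the NOD and 69.3 on the BL6 genome. Zfp534 had no listed interaction in any of the 10 tables.

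Contacts of the members were long. Spans of 0.5 to 2 Mb made up 63.2% and 60.3% of their read pairs in Smc1 NOD, against 43.2% and 49.9% of all listed read pairs of the same tables. In F1 they made up 65.0% on the NOD genome (exact binomial 95% interval 62.6% to 67.3%, counting error only) and 68.0% on the BL6 genome (65.1% to 70.8%), against 48.6% and 50.2% of all. In Smc1 BL6 the share was 62.0% and 72.0% of 150 and 186 read pairs, against 50.0% and 46.4% of all, so the long share was above that of all read pairs in both strains and overlapped between them. In H3K27ac it was 69.0% and 67.6% in NOD and 91.2% and 61.1% in BL6, the last pair on 34 and 36 read pairs. Of all listed read pairs in H3K27ac, this range made up 44.7% and 52.8% in NOD and 51.6% and 54.6% in BL6. Zfp990 had the longest contacts, with 88.9% and 100% of its Smc1 NOD read pairs in this range. Gm13212 had the smallest share, with 20.7% and 37.4%, below the 43.2% and 49.9% of all read pairs.

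In Smc1, where the other anchor lay differed between strains. In Smc1 NOD, 23.5% and 29.1% of the members' read pairs had both anchors at members and 70.8% and 68.7% had the other anchor elsewhere in the zinc finger cluster. Anchors before the cluster took 4.44% and 1.74% in NOD, 3.59% in F1 on the NOD genome, 5.19% in F1 on the BL6 genome, and 30.7% and 32.3% in BL6. In RPM these were 26.7 and 19.99 in Smc1 NOD, 63.7 and 65.7 in F1 on the NOD and the BL6 genome, and 22.0 and 20.2 in Smc1 BL6. In Smc1, contacts with the sequence before the cluster thus had like levels in the NOD and BL6 libraries and higher ones in F1. In H3K27ac they were higher in NOD, with 81.6 and 66.9 RPM in NOD and 6.22 and 3.12 in BL6. These rest on 33 and 36 read pairs in NOD and on 3 and 4 in BL6, near the listing minimum of 2. The shares, 6.29% and 12.2% in NOD and 8.82% and 11.1% in BL6, overlapped between the strains.

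Contacts joining 2 different members numbered 134 and 281 read pairs in Smc1 NOD, 207 in F1 on the NOD genome, 181 in F1 on the BL6 genome, and 14 and 9 in Smc1 BL6. In H3K27ac they numbered 82 and 58 in NOD and 2 and 3 in BL6. Of the 10 possible pairs, 8 were listed in each Smc1 NOD library, 9 in F1 on either genome, and 1 and 2 in BL6. Gm42346 and Zfp982 lie 1992 kb apart, so that nearly all of their possible contacts exceed the 2 Mb that the tables reach, and they had 2 and 8 read pairs in NOD.

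**Figure D4:**
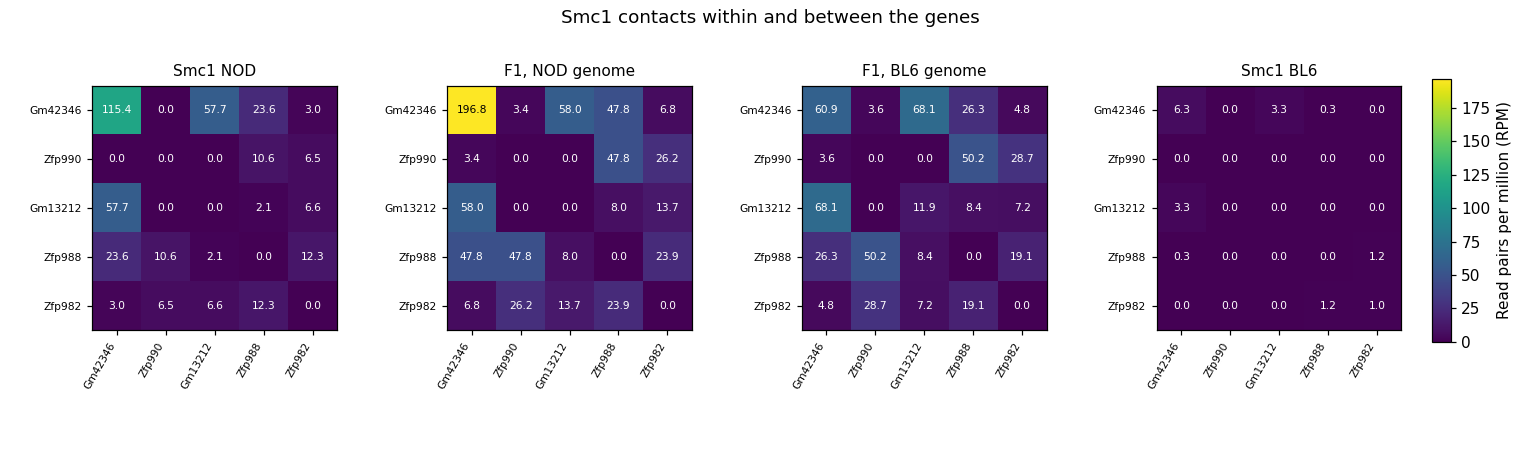
RPM for contacts within each gene (diagonal) and between genes, averaged over the libraries of a group, from Smc1 NOD on the left to Smc1 BL6 on the right on a single linear colour scale. Gm42346 with Gm13212 is filled in NOD and in both forms of F1, and the BL6 panel is near 0. Zfp990 with Zfp988 had 47.8 and 50.2 in F1 on the NOD and the BL6 genome, and 6.67 and 14.5 in the NOD libraries.

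Within the left group, Gm42346 joined Gm13212 with 77 and 120 read pairs in Smc1 NOD, 51 and 57 in F1 on the NOD and the BL6 genome, 14 in BL6 library 1 and none listed in BL6 library 2. In RPM, Gm42346 with Gm13212 had 42.8 and 72.7 in NOD, 58.0 and 68.1 in F1, and 6.70 in BL6 library 1. Zfp990 lies between them and had no listed contact with Gm13212 in any table and none with Gm42346 outside F1, which had 3 on each genome. Across the 1767 kb to the right group, Zfp990 joined Zfp988 with 12 and 24 read pairs in NOD and 42 in F1 on either genome, with none listed in BL6. In H3K27ac the same pair had 17 and 16 in NOD and none listed in BL6. An anchor past Zfp990 and the anchor past Zfp988 held 9 and 24 of these in Smc1 NOD and 38 in F1 on either genome. They also held all of those in H3K27ac NOD. Both anchors lie past the gene ends and count through the 5 kb margin. Gm42346 joined Zfp988 with 25 and 55 in NOD, 42 and 22 in F1 on the NOD and the BL6 genome, none listed in BL6 library 1 and 2 in library 2. Every pair across the groups was listed in Smc1 NOD and F1, but Gm42346 with Zfp982 and Gm13212 with Zfp988 had none listed in H3K27ac NOD.

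Anchors that overlap between tables were merged, which gave 667 anchor pairs of the members. Of these, 75 were listed in both Smc1 NOD libraries, and of the 75, 36 were also listed in F1 on the BL6 genome, 16 in both H3K27ac NOD libraries and 16 in a Smc1 BL6 library. F1 listed 277 pairs on the NOD genome against 187 on the BL6 genome, and the pairs on both lists made up 53.4% of the NOD-genome list and 79.1% of the BL6-genome list. Ranked by their sum over the Smc1 NOD libraries, the most read pairs joined chr4:145557306-145560591, between Zfp990 and Gm13212, with chr4:147516940-147521297 past the end of Zfp982, a span of 1960 kb. That pair had 60 and 88 in Smc1 NOD, 17 and 19 in F1 on the NOD and the BL6 genome, and 7 and 19 in Smc1 BL6. It was listed in all 10 tables, with 29 and 52 in H3K27ac NOD and 16 and 5 in H3K27ac BL6.

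By the same sum, next and with 1 read pair fewer came a contact of 6.86 kb inside Gm42346, between chr4:145426985-145433238 and chr4:145433483-145440459, with 47 and 100 read pairs in Smc1 NOD, 68 in F1 on the NOD genome, none listed in F1 on the BL6 genome, and 10 and 16 in BL6, so it led in NOD library 2 and in F1 on the NOD genome. The anchor chr4:145446084-145451334 at the right end of Gm42346 joined chr4:146051403-146058149, before Zfp987 and 606 kb away, with 32 and 93 in NOD and 62 and 64 in F1 on the NOD and the BL6 genome. In BL6 that pair had 2 in library 1 and none listed in library 2, so it differed from the contact inside Gm42346 in being as frequent in F1 on either genome. Among pairs joining 2 members, chr4:145403869-145408865 before Gm42346 with chr4:145582087-145583913 before Gm13212 had 22 and 43 in NOD, 12 and 15 in F1 on the NOD and the BL6 genome, 7 in BL6 library 1 and none listed in library 2. The same left anchor with chr4:145579571-145581647 had 24 and 36 in NOD, 21 and 22 in F1 and none listed in BL6. The anchor past Zfp988 at chr4:147334485-147338960 joined chr4:145542259-145544020 past Zfp990, 1794 kb away, with 9 and 24 in NOD, 38 in F1 on either genome and none listed in BL6. It joined chr4:145433483-145440459 in Gm42346 with 5 and 23 in NOD, and the anchor past Zfp982 with 35 in NOD library 2 and 7 in BL6 library 2, neither listed in library 1 of the strain.

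Reads at the anchors themselves were less far apart than the read pairs that joined them. The anchor past Zfp988 held 8.72 and 11.4 times the reads of the median anchor of its table in Smc1 NOD, 12.2 times in F1 on either genome, and 5.69 and 5.63 times in Smc1 BL6. The same anchor joined 159 and 290 read pairs in NOD and 16 and 26 in BL6. The anchor past Zfp982 held 12.5 and 14.7 times the median in NOD, 9.32 and 9.38 times in F1 on the NOD and the BL6 genome, and 5.79 and 5.53 times in BL6, with 124 and 251 read pairs in NOD and 20 and 34 in BL6. At chr4:145403869-145408865, before Gm42346, the anchor held 6.52 and 7.97 times the median in NOD, 7.59 and 7.17 times in F1 and 1.14 and 1.20 times in BL6. More reads at these anchors thus went with more contacts in NOD and F1, and their part in the contacts was not tested.

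Contacts did not sit alike on the genes whose starts are shown above. Within 5 kb of the Gm13212 promoter there were 114 and 185 read pairs in Smc1 NOD, 108 and 121 in F1 on the NOD and the BL6 genome, 13 in BL6 library 1 and none listed in library 2. Within 5 kb of its other end none was listed in either strain, and 5 in F1 on the BL6 genome. For Zfp988 it was the other way round: no parental table listed a read pair near its promoter, whereas its far end had 159 and 290 in NOD, 289 and 230 in F1 and 16 and 26 in BL6. The promoter shown for Zfp982, 1 of its 3 listed, lies inside the gene body. It had 8 and 43 in NOD, 33 and 27 in F1 and 6 and 14 in BL6. The far end of the gene had 135 and 267, 114 and 137, and 20 and 42 in the same order. Contacts at the other listed promoters of Zfp982 were not counted. In H3K27ac NOD the far end of Zfp988 had 109 and 54 read pairs and its promoter none listed.

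Outside the 3 Mb, 13731 genes with a mean of at least 20 RPM over the 10 tables were ranked by how their pattern resembled that of the 5 together. The measure was Pearson's r of log2(RPM + 1) over the 10 tables, which share strains, mapping genomes and, for F1, a library. The highest values were 0.979 for Klra9, 0.973 for Ifi203 and Klra7, 0.969 for Tmem267 and 0.964 for Klra1. Klra9, Klra7 and Klra1 on chromosome 6 belong to the Ly49 receptors of natural killer cells, and Ifi203 on chromosome 1 to the interferon-inducible genes. Klra9 had 37.3 and 125 RPM in Smc1 NOD, 233 and 243 in F1 on the NOD and the BL6 genome, and no listed interaction in BL6.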

How the data were processed

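HiChIP read pairs of sorted CD4+ CD8+ thymocytes were used as the authors deposited them, in 10 tables of 9 libraries. The values are counts of read pairs per listed interaction and counts of reads per anchor, deposited without normalization, per the file headers. The authors also deposited a p-value with a q-value for each interaction. HiC-Pro, MACS, Juicer 1.7.6 and the build GRCm38 stand in the submitters' processing notes without a stated role. Per the names the authors gave them, the NOD libraries were processed on the NOD genome and shifted to BL6 coordinates, and F1 exists in both forms. Spans were taken from the shifted coordinates, which for the members' interactions differed from the tables' distance column by a median of 23 to 27 bases.

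The members and all lists were chosen with earlier results of these data known. Read pairs were summed per gene (GRCm38.p6 protein-coding genes) over interactions of any span with an anchor in the gene or within 5 kb, each once per gene, and scaled to 1000000 read pairs of the table (RPM). An interaction that was not listed entered sums and fits as 0, and overlapping genes share interactions. Zinc finger genes were classed by symbol. Order counts used genes with at least 40 read pairs over the libraries compared in Smc1 and F1, and tested genes in H3K27ac. Only H3K27ac was tested: NOD against BL6 over all genes with edgeR 4.0.16 (quasi-likelihood, TMM, default filter, robust) in R 4.3.3, with Benjamini-Hochberg adjustment at 0.05. A standard error is the log2 fold change over the root of the F statistic. The fit was tested on simulated counts. DESeq2 1.42.0, other limits on interactions, a replicate block and leaving out each library were the alternatives. Sums were made with Python 3.11.15 and pandas 2.3.3. Besides the members, the text names up to 6 zinc finger and 6 other genes of the 3 Mb with the most Smc1 NOD contacts, Fv1, the nearest neighbours, the 5 genes most alike and up to 5 interactions of each kind. Genes named beyond this were chosen after their values were seen.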

Additional observations from a re-analysis of the deposited data

How the results depend on the processing

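The count of genes called in H3K27ac was 0 with edgeR on all libraries without a replicate block. It was 25 with DESeq2 (4 members called) and 7 with no filter on low counts (0 members). It stayed at 0 with at least 3 read pairs per interaction, a q-value up to 0.01, spans of at least 10 kb and no margin around the gene. Leaving out 1 library gave 0 to 28 calls: 0 without BL6 1, 8 without BL6 2, 8 without NOD 1 and 28 without NOD 2. The lone library of a strain is then assumed to vary like the other strain. Only without NOD 2 were members called, all 5 of them. With the replicate block edgeR called 31 genes and 4 members, all but Zfp990 (edgeR adjusted p = 0.0601, between 0.0264 and 1.00 over all alternatives). Same-numbered H3K27ac libraries deviated together across genes (r = 0.565), but 2 pairs do not show that the numbers pair the samples. The members' fold changes were positive in all 52 alternatives that gave one, and 13 of these passed the threshold. Without a margin, Zfp990, Gm13212 and Zfp988 were not among the genes tested. The cause of these shifts was not tested.

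The log2 ratio of NOD over BL6 in Smc1 for all 5 genes, 3.70, was 4.34 with at least 3 read pairs per interaction and 4.62 with a q-value up to 0.01, and 3.16 to 4.09 without 1 library. For F1 on the BL6 genome over BL6, 4.23 with all interactions, these limits gave 4.85 and 5.03, no margin gave 3.92, and leaving out a BL6 library gave 4.14 to 4.34. For F1 on the NOD over the BL6 genome, the log2 ratio of 0.49 was 0.33 with a q-value up to 0.01 and 0.73 with no margin. The long-span share in Smc1 NOD, 61.7% on average, was 57.4% with at least 3 read pairs, 64.6% with no margin and 60.3% to 63.2% without 1 library. No other alternative moved these 4 values beyond the spread between libraries or, for F1 on its 2 genomes, the counting interval. The H3K27ac values of BL6 rest on 34 and 36 read pairs for all 5 genes.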
